A study of Homo sapiens with 6 samples.

Results

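The 9 genes described here encode the core proteins that write, maintain, erase and read cytosine methylation: the methyltransferases DNMT1, DNMT3A and DNMT3B, their partner UHRF1 and its relative UHRF2, the dioxygenases TET1, TET2 and TET3, and the methyl-CpG binding protein MBD2. They were taken by symbol from the gene table, where all 9 were present among 17579 genes, and all 9 passed the filter on low counts. RNA-seq was made from LP-1, an established human multiple myeloma line. The control group (3 libraries) had received a virus with a guide that has no target, and the AURKA-guide group (3 libraries) a virus with a guide against AURKA, which encodes the mitotic kinase Aurora A (labelled a knockout). Both groups were grown with 10% serum, and nothing in the labels names a clone, a time after infection or a Cas9 construct. The labels do not say that replicates were separate cultures, so p-values measure the spread between these libraries, which may be technical.

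In human cells a methyl group is placed on the cytosine of CpG dinucleotides. DNMT3A and DNMT3B methylate sites on both strands anew, and DNMT1 copies the mark to the new strand after replication, guided by UHRF1, which binds hemimethylated CpG and ubiquitinates histone H3. TET proteins oxidise the methyl group, the first step of its removal, and MBD2 binds methylated CpG and brings the NuRD remodelling and deacetylase complex. DNA methylation itself was not measured here, only RNA.

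The targeted gene was lower but not absent in the libraries labelled a knockout: AURKA stood at 189.1, 192.2 and 194.8 CPM (read counts scaled to library size) in control libraries and fell to 112.8, 119.4 and 112.7 CPM with its guide (0.599 of control, log2 fold change -0.74, SE 0.0488, edgeR adjusted p = 1.55e-06). Values are given here and hereafter in the order of replicates 1, 2 and 3. Each library held between 17724174 and 18523594 expected counts. Of the plasma cell markers all 7 were detected, with a summed level of 3491 to 3595 CPM in control and 3415 to 3454 CPM in AURKA-guide libraries (CD38 rose by 0.38, SE 0.0456, edgeR adjusted p = 0.000416, and the other 6 were below 0 with none called), while the B cell marker MS4A1 was at 0 in all libraries and PAX5 at 0.0091 CPM on average, although the labels call the cells B lymphoblasts. T and NK cell, erythroid, myeloid, stromal and epithelial markers each summed to at most 5.94 CPM in any library. Control replicate 3 stood apart: 267 genes passed with all 6 libraries and 2034 without it.

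Per transcript length, DNMT1 and MBD2 were the most abundant of the 9 transcripts and TET1 and TET2 the least. In control libraries the deposited FPKM (reads scaled to transcript length and library size) was 53.1 ± 2.13 for DNMT1, 48.0 ± 2.47 for MBD2, 26.7 ± 0.732 for DNMT3B, 16.8 ± 0.525 for UHRF1, 13.2 ± 0.425 for DNMT3A, 9.56 ± 0.845 for UHRF2, 6.99 ± 0.241 for TET3, 3.79 ± 0.12 for TET1 and 3.59 ± 0.0404 for TET2 (SD, n = 3). The maintenance enzyme thus had an FPKM above that of 86% of the 11759 genes with at least 0.5 FPKM in control, and TET2 above that of 24.9%. The order was the same in AURKA-guide libraries. Neighbours in the order had separate ranges over the control libraries, apart from DNMT1 (50.63 to 54.43) and MBD2 (45.83 to 50.70), which overlapped. In AURKA-guide libraries the only overlap was between TET1 (3.82 to 4.39) and TET2 (3.97 to 4.12).

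**Figure D1:**
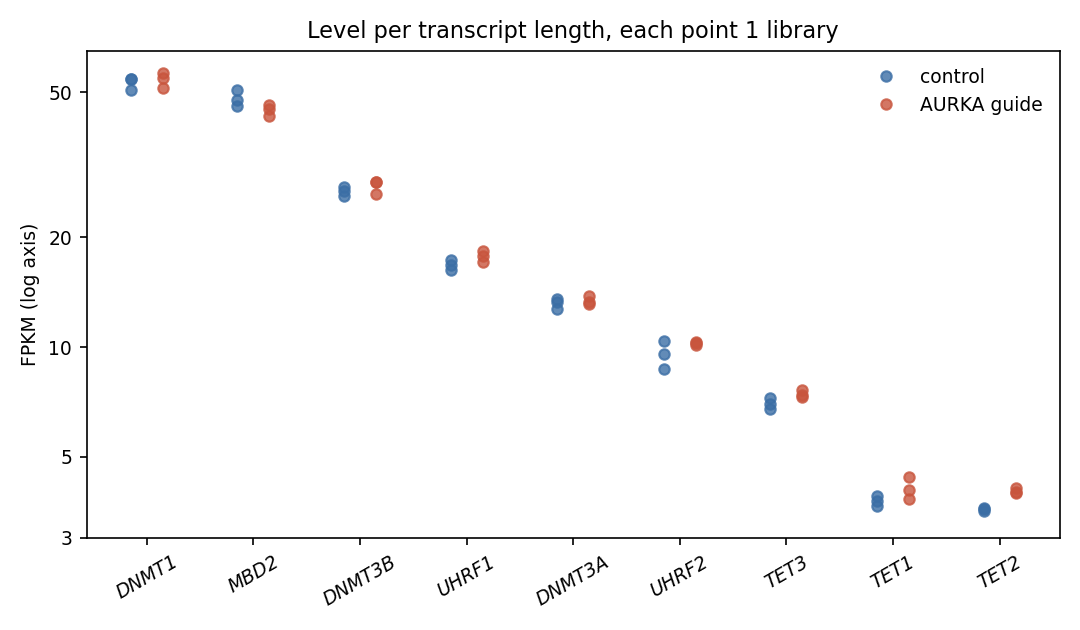
FPKM on a log axis for the 9 genes in order of their control mean, each point 1 library, blue for control and orange for AURKA guide. The order from DNMT1 at 53.1 to TET2 at 3.59 spans both groups, and the points of a gene lie close together beside the steps between most genes.

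No gene of the 9 passed an adjusted p of 0.05 between the groups. The edgeR quasi-likelihood test over 13138 genes called 267, a background of 2.03% (0.959% higher and 1.07% lower), and 0 of the 9 were among them (2 had an unadjusted p below 0.05, against 16.1% of all genes). DESeq2 also called 0 of the 9, as did limma on the FPKM values. The 95% intervals of the log2 fold change, AURKA guide over control, lay for all 9 between -0.219 and 0.282. The log2 fold change was above 0 in 8 of the 9, with a median of 0.07 against 0 over all genes tested. In 3 of the 9 (33.3%) the groups did not overlap, against 20.8% of all genes (10.5% higher, 10.2% lower): TET2 and TET3 lay higher in AURKA-guide libraries and MBD2 lower. In a fit with a correction for transcript GC content, MBD2 was the 1 gene of the 9 called, where 6.42% of all genes were (3.25% lower).

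**Figure D2:**
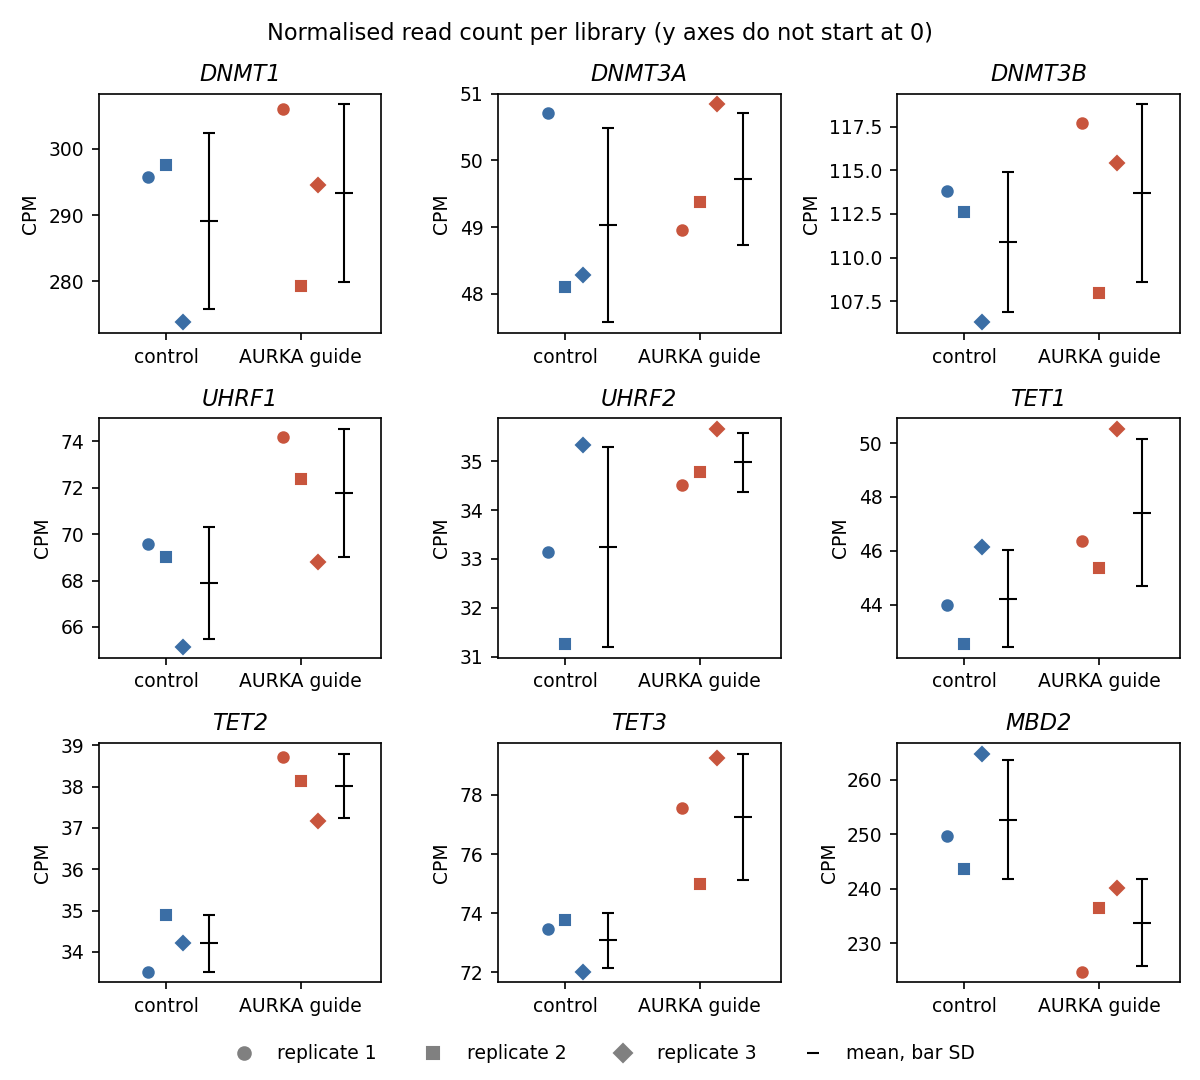
Normalised read count in CPM of each gene in the 6 libraries, blue for control and orange for AURKA guide, symbols by replicate number, with the mean and SD in black; y axes do not start at 0. TET2 and TET3 (both higher) and MBD2 (lower) have groups that do not overlap, and the other 6 genes have groups that do.

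To show CpG dinucleotides in context, 1 annotated start window is given for each of 4 of the genes, with each CpG in capitals. They are the maintenance pair DNMT1 and UHRF1, MBD2, the 1 gene called in any fit, and DNMT3B, whose window holds the fewest CpG of all 9 genes. Methylation of these CpG was not measured. The windows were not matched to the transcripts counted here, so the DNMT3B window need not be the start that its leading transcript uses. Each is 1 RefSeq window from 250 bases before to 50 after an annotated start (GRCh38.p14; first window listed for the gene), written 5′ to 3′ on the gene's strand. DNMT1 is at chr19:10194904-10195203 (minus strand), UHRF1 at chr19:4909251-4909550 (plus), DNMT3B at chr20:32779602-32779901 (plus) and MBD2 at chr18:54224620-54224919 (minus).
DNMT1: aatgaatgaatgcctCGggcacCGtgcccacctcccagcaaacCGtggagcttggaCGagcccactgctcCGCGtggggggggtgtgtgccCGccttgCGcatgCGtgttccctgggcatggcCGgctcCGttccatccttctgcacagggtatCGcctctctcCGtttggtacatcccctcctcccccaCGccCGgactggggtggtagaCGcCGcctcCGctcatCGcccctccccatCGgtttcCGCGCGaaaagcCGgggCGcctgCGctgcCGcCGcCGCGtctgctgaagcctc
UHRF1: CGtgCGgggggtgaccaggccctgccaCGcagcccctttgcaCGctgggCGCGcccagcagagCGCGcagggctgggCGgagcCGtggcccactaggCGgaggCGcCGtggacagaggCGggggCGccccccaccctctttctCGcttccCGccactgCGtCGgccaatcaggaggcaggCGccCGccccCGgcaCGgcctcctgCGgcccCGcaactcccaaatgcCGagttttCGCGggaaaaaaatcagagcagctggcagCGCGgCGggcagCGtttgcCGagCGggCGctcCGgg
DNMT3B: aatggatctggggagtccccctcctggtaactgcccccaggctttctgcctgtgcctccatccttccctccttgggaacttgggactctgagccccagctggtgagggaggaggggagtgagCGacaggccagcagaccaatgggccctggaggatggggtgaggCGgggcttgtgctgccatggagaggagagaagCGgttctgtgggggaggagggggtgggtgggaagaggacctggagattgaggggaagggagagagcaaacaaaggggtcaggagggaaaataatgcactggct
MBD2: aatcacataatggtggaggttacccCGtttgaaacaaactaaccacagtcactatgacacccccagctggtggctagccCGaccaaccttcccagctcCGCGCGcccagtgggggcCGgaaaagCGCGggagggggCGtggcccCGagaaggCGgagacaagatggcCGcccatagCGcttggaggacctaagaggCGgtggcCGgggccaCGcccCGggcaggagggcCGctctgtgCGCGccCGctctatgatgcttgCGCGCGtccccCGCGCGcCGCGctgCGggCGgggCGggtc
The windows hold 30 CpG for DNMT1, 36 for UHRF1, 32 for MBD2 and 3 for DNMT3B, against a median of 14 over 35116 such windows. All 9 genes have at least 1 window, 20 in all, and 15 of the 20 hold more CpG than that median. Windows of the same gene can overlap, as some of the 6 of DNMT3A do, so the 20 are not separate stretches. The letters TTTNNCGC (N any base, both strands), which cover the usual E2F binding sequence, occur in 6.9% of all windows and in 3 of these 20, 1 of DNMT1 and 2 of UHRF1. Such a match is a description of the letters and says nothing of binding in these cells.

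Among the methyltransferases, DNMT1 was at 295.8, 297.6 and 273.8 CPM in control and at 306.0, 279.3 and 294.6 CPM in AURKA-guide libraries. The groups overlapped, and the lowest library was control replicate 3. The log2 fold change was 0.02 (SE 0.0516, 95% interval -0.089 to 0.131, edgeR adjusted p = 0.873), and it was -0.02 without control replicate 3 and -0.01 without AURKA-guide replicate 1, so its direction was not determined. DNMT3B, a de novo enzyme that is high in early embryonic and some tumour cells, was at 113.8, 112.6 and 106.3 CPM in control and at 117.7, 108.0 and 115.4 CPM in AURKA-guide libraries. The groups overlapped here too, with control replicate 3 lowest, and the log2 fold change was 0.04 (SE 0.0539, 95% interval -0.079 to 0.151, adjusted p = 0.78). DNMT3A, the de novo enzyme often mutated in blood cancers of the myeloid lineage, was at 50.71, 48.10 and 48.28 CPM in control and at 48.95, 49.38 and 50.84 CPM in AURKA-guide libraries. Its log2 fold change was 0.02 (SE 0.0576, 95% interval -0.103 to 0.143, adjusted p = 0.892), and the 2 groups covered almost the same range.

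The ubiquitin ligase UHRF1, which is made mainly in dividing cells, was at 69.57, 69.01 and 65.14 CPM in control and at 74.17, 72.38 and 68.78 CPM in AURKA-guide libraries. Of the AURKA-guide libraries replicates 1 and 2 lay above all controls, and replicate 3 lay within the control range. The log2 fold change was 0.08 (SE 0.0565, 95% interval -0.041 to 0.201, adjusted p = 0.507). With the GC correction it was 0.11 (SE 0.0391, adjusted p = 0.102), also not past the threshold. UHRF2, which has the same domains but does not replace UHRF1 in maintenance, was at 33.14, 31.25 and 35.34 CPM in control and at 34.51, 34.77 and 35.66 CPM in AURKA-guide libraries. The highest control, replicate 3, lay among the AURKA-guide values, and the log2 fold change was 0.07 (SE 0.066, 95% interval -0.068 to 0.214, adjusted p = 0.614).

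The TET genes all lay slightly higher in AURKA-guide libraries, without passing the test. TET2, a dioxygenase often lost in myeloid neoplasms, was at 33.52, 34.90 and 34.21 CPM in control and at 38.73, 38.15 and 37.18 CPM in AURKA-guide libraries. Every AURKA-guide library lay above every control. The log2 fold change was 0.15 (SE 0.0605, 95% interval 0.023 to 0.282, edgeR adjusted p = 0.233), and over the 16 other fits it ran from 0.11 to 0.17 with adjusted p from 0.108 to 0.536. TET3, the form that oxidises the paternal genome in the zygote, was at 73.47, 73.75 and 72.02 CPM in control and at 77.56, 75.0 and 79.24 CPM in AURKA-guide libraries, again without overlap. Its log2 fold change was 0.08 (SE 0.0527, 95% interval -0.032 to 0.193, adjusted p = 0.474), or 0.09 with the GC correction (SE 0.0381, edgeR adjusted p = 0.157). TET1, known from embryonic stem cells, was at 44.00, 42.56 and 46.13 CPM in control and at 46.38, 45.35 and 50.52 CPM in AURKA-guide libraries. AURKA-guide replicate 2 lay below control replicate 3, and the log2 fold change was 0.10 (SE 0.0641, 95% interval -0.037 to 0.237, adjusted p = 0.464), or 0.05 with the GC correction.

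MBD2 was the 1 gene of the 9 that lay lower in AURKA-guide libraries. It was at 249.6, 243.7 and 264.8 CPM in control and at 224.8, 236.4 and 240.1 CPM in AURKA-guide libraries. The groups did not overlap, but the lowest control and the highest AURKA-guide library were close. The level in AURKA-guide libraries was 0.925 of control (log2 fold change -0.11, SE 0.0499, 95% interval -0.219 to -0.006, edgeR adjusted p = 0.284). With the GC correction it fell by 0.14 (SE 0.0312, edgeR adjusted p = 0.00796). Over all 16 other fits the log2 fold change ran from -0.14 to -0.08 with adjusted p from 0.00509 to 0.539, and without control replicate 3, its highest library, it was -0.08 (adjusted p = 0.225).

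Added over roles, the 3 TET genes together were at 151.0, 151.2 and 152.4 CPM in control and at 162.7, 158.5 and 166.9 CPM in AURKA-guide libraries, a ratio of means of 1.07. UHRF1 and UHRF2 together ran from 100.3 to 102.7 CPM in control and from 104.4 to 108.7 CPM in AURKA-guide libraries. In both sums the groups were apart, as they also were for TET2 and TET3 alone. Of all genes taken singly 20.8% were apart, and no such share was computed for sums. The 3 methyltransferases together were at 428.4 to 460.3 CPM in control and 436.7 to 472.6 CPM in AURKA-guide libraries, and these overlapped. The sums are given as a description, with no test.

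Control replicate 3 differed from the other controls in opposite ways among these genes. DNMT1, DNMT3B, UHRF1 and TET3, with transcript GC contents of 55.4%, 53.9%, 54.6% and 52.3%, were lowest of the controls in it by CPM, while MBD2, UHRF2 and TET1, at 45.8%, 43.4% and 41.0%, were highest. DNMT3A (53.7%) and TET2 (43.0%) lay between the other controls in it. By the deposited FPKM, TET3 (6.97, 6.76 and 7.24) and TET2 (3.55, 3.60 and 3.63) were highest in it, and the other 7 genes had the same place as by CPM. The GC correction takes out a smooth trend with GC content from each library, and under it the standard error of all 9 genes was smaller, from 0.0312 to 0.0526 against 0.0499 to 0.066.

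**Figure D3:**
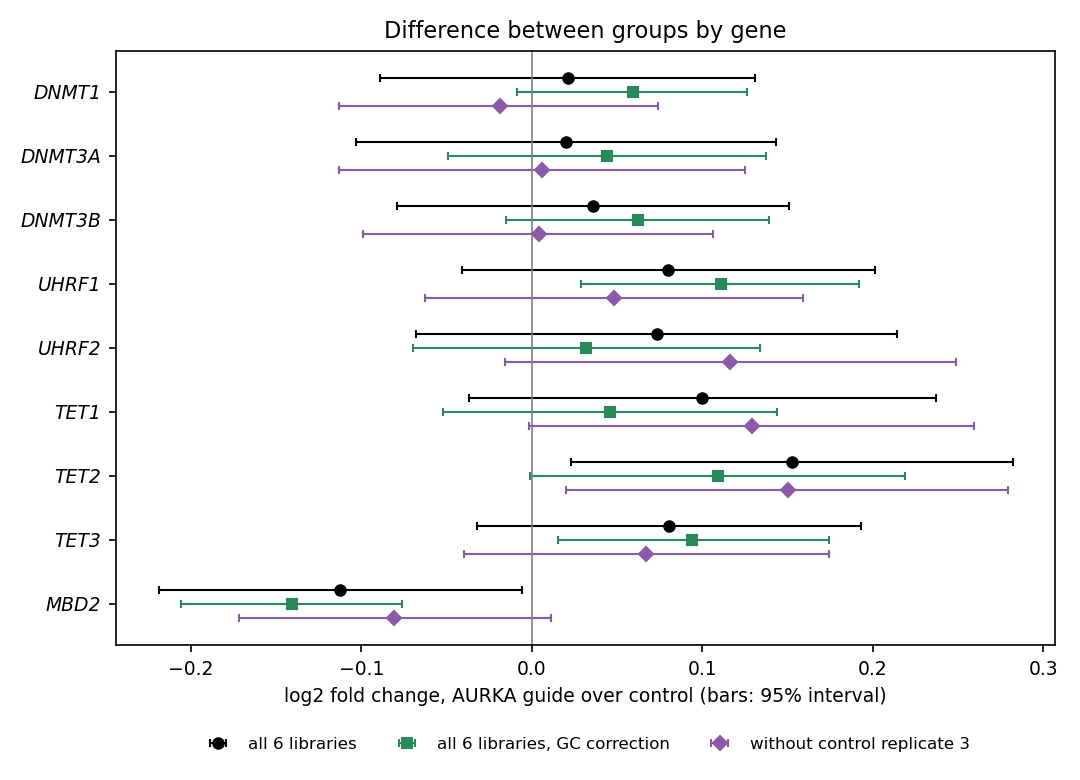
Log2 fold change of AURKA guide over control for each gene with its 95% interval, from all 6 libraries (black), with the GC correction (green) and without control replicate 3 (purple). The estimates of 8 of the 9 genes keep their sign in all 3, and DNMT1 crosses 0 without control replicate 3. The MBD2 interval runs from -0.206 to -0.076 with the GC correction but from -0.172 to 0.011 without control replicate 3. With the GC correction the TET2 interval runs from -0.001 to 0.219, while those of UHRF1 (0.029 to 0.192) and TET3 (0.015 to 0.174) lie above 0. TET2, UHRF1 and TET3 are not called in that fit.

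The transcript table divides the reads of the 9 genes among 78 RefSeq transcripts, of which 46 passed the filter on low counts. These are estimates, since transcripts of a gene share most of their sequence, and 49 of the 78 were at 0 in at least 1 library. MBD2 was the simplest case: 99.8% to 100% of its reads in every library went to NM_003927.4, the long form with 411 codons (coding lengths from GENCODE release 29), and almost none to the short form NM_015832.4 with 302 codons. For DNMT3B the leading transcript was NM_175849.1, which took 76.4%, 88.2% and 79.8% of the gene's reads in control and 85.4%, 62.1% and 72.3% in AURKA-guide libraries. Its coding sequence has 770 codons and is known as the DNMT3B3 form, which lacks part of the catalytic domain. The full-length form NM_006892.3, with 853 codons, had a mean of 57.8 expected counts against 1589 for NM_175849.1, and NM_175848.1, with 833 codons, had 232.2.

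The split of DNMT1 was not stable. NM_001379.3 took 44.4%, 24.6% and 46.8% of its reads in control and 19.8%, 42.1% and 30.2% in AURKA-guide libraries, while NM_001318731.1 took 35.8% to 50.8% over all 6 libraries. Both groups held libraries with the 1 form ahead and libraries with the other. UHRF1 reads went mostly to NM_001048201.2, from 49.6% in control replicate 3 to 84.5% in control replicate 2, with 67.8% to 76.5% in AURKA-guide libraries. DNMT3A had the most listed transcripts, 15, and NM_022552.4 (912 codons) ran from 0.464% in control replicate 3 to 28.1% in control replicate 1. This is not the share of the long form as a whole. NM_175629.2 also has 912 codons, and the coding lengths of the leading XM transcripts were not determined. For TET2 the leading transcript XM_005263082.3 took from 9.48% to 78.0% of the reads, both extremes being AURKA-guide libraries.

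**Figure D4:**
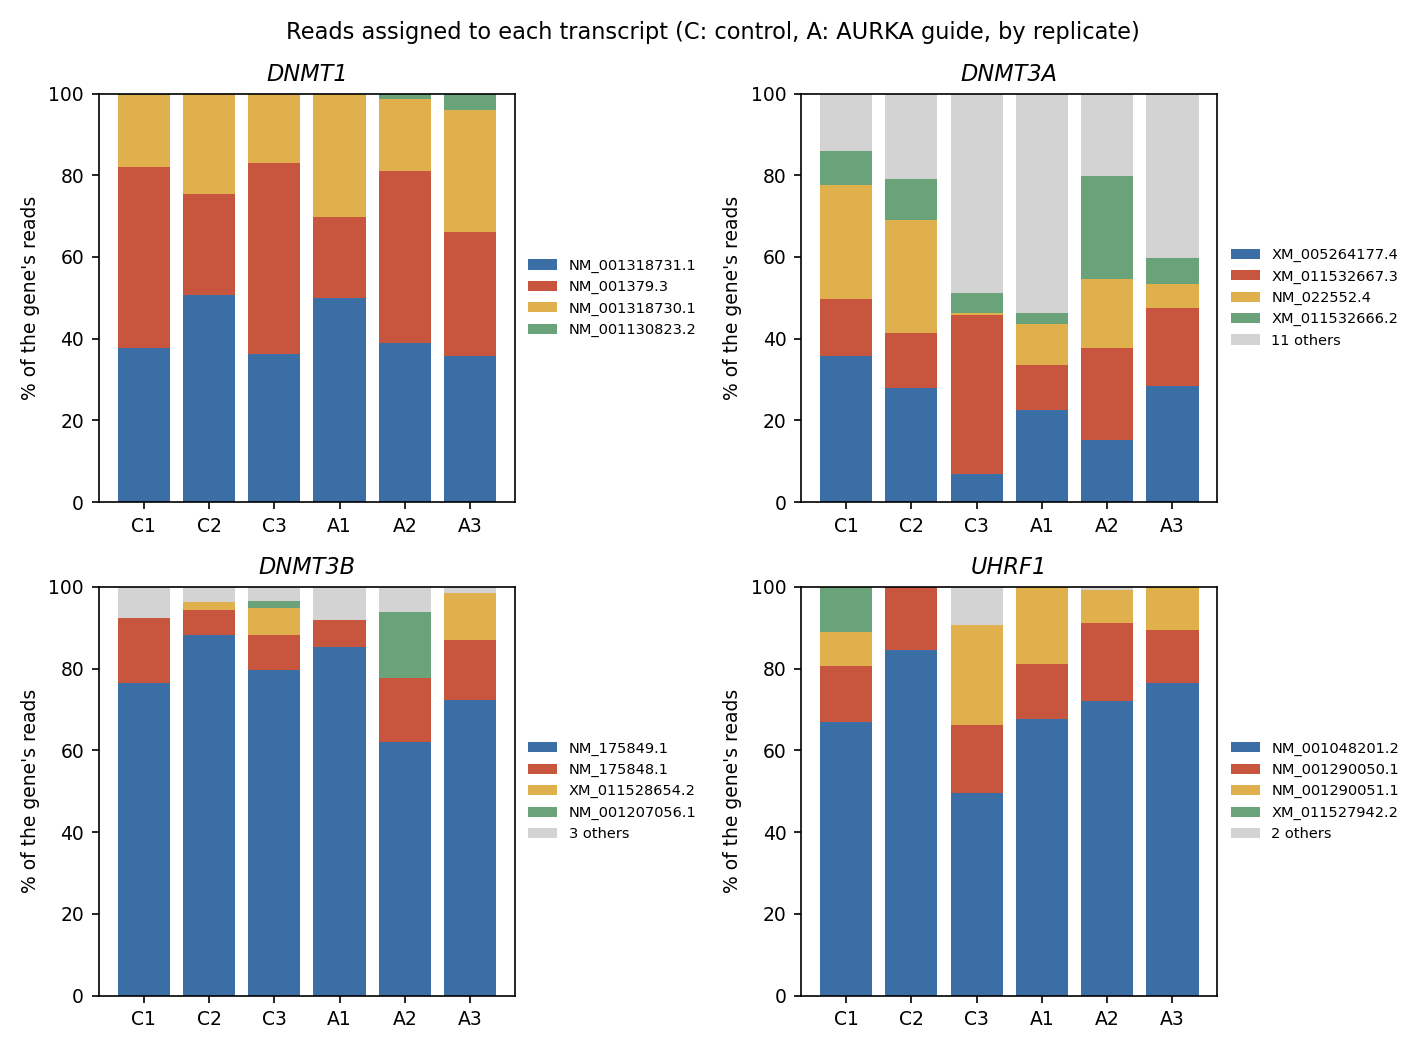
Percent of each gene's reads assigned to its 4 leading transcripts and to the others, for DNMT1, DNMT3A, DNMT3B and UHRF1, 1 bar per library (C1 to C3 control, A1 to A3 AURKA guide). The NM_175849.1 share of DNMT3B stays at or above 62.1% in all libraries, while the DNMT1 and DNMT3A splits vary within both groups.

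No transcript of the 9 genes passed edgeR's quasi-likelihood test, which called 1 of 43979 transcripts (0.00227%), so 0 calls among 46 says little. At an unadjusted p below 0.05 there was 1 of the 46, against 3.85% of all. It was NM_001320893.1 of DNMT3A, a form with 689 codons, at 19.38, 33.96 and 33.98 expected counts in control and at 109.57, 74.20 and 84.97 in AURKA-guide libraries. The groups were well apart, with a log2 fold change of 1.61 (SE 0.453, edgeR adjusted p = 0.822). The DESeq2 Wald test called it (log2 fold change 1.61, SE 0.407, adjusted p = 0.00528), where it called 2.04% of transcripts. In the authors' deposited table the same transcript had a log2 fold change of 1.63 and a q-value of 0.231. It held 12.2% of the DNMT3A reads at most.

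The authors' deposited gene table lists 231 genes, against 17579 with expression values, and 0 of the 9 are in it. With so few genes listed, 0 of 9 says little. The authors' deposited transcript table gives 77 of the 78 transcripts, 4 of them with a q-value below 0.05 for the AURKA guide, where 1.55% of transcripts are. All 4 were transcripts of UHRF1 or UHRF2 each with reads in at most 2 libraries above 1 expected count. XM_011527942.2 of UHRF1, listed there at -22.09, had 143.79 expected counts in control replicate 1 and 0 in the other 5 libraries. For a guide against NSD2 (libraries not used here), 2 of the 77 had a q-value below 0.05, where 1.78% of transcripts did. None of the 9 leading transcripts had a q-value below 0.05 in the authors' deposited table for either guide. The smallest for the AURKA guide was 0.665, for MBD2.

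Of the wider pathway, 1 of 78 tested genes passed (1.28%, below the 2.03% of all genes). NEIL3, a DNA glycosylase of base excision repair, was at 18.87, 16.57 and 20.35 CPM in control and at 22.86, 24.25 and 25.15 CPM in AURKA-guide libraries, with no overlap, and rose by 0.37 (SE 0.0836, edgeR adjusted p = 0.0312). The call was lost without control replicate 1 (adjusted p = 0.134), control replicate 2 (0.0698), AURKA-guide replicate 2 (0.161) or AURKA-guide replicate 3 (0.201), with log2 fold changes of 0.38, 0.30, 0.37 and 0.34. Without AURKA-guide replicate 1 it was just inside the threshold (0.41, adjusted p = 0.04997). It is 1 of 14 tested genes for the removal of oxidised cytosine and TET cofactors, of which 1 rose and 0 fell (median -0.02). In that list the isocitrate dehydrogenase IDH2, which makes the TET cosubstrate 2-oxoglutarate, was at 0.15 (SE 0.0489, adjusted p = 0.163; 0.00105 with the GC correction) and the glycosyltransferase OGT, a TET partner, at 0.09 (SE 0.0493). TDG, the glycosylase that excises the oxidised bases, was at 0.06 (SE 0.0633, adjusted p = 0.702).

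Partners of maintenance had 0 calls among 9 tested, with 7 log2 fold changes above 0 and a median of 0.08. The PCNA-associated factor PCLAF, a ubiquitinated DNMT1 recruiter, was at 0.16 (SE 0.0569, adjusted p = 0.2), CDCA7L at 0.14 (SE 0.0557) and the helicase HELLS, which opens nucleosomal DNA for methylation, at 0.17 (SE 0.0764). These 3 were called without control replicate 3 (adjusted p = 0.00462, 0.0395 and 0.0067), where 15.3% of all genes were, but not with the GC correction (0.0875, 0.0634 and 0.203). The sliding clamp PCNA was at 0.05 (SE 0.0501). DNMT3L, the inactive partner of the de novo enzymes, was at 0.018 CPM on average and was not tested.

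The other 9 methyl-CpG readers gave 0 calls and a median of -0.02, with ZBTB33 at 0.11 (SE 0.0719), MBD6 at -0.08 (SE 0.0666) and ZBTB38 at 0.03 (SE 0.0433). Without control replicate 3, ZBTB33 was called higher (adjusted p = 0.0472) and MBD6 lower (0.0446). MBD3, which forms a NuRD complex separate from that of MBD2, was at -0.04 (SE 0.0706). None of the 12 other NuRD subunits passed (median 0.02), among them the histone chaperone RBBP4 at 0.08 (SE 0.0432), GATAD2B at 0.07 (SE 0.0499) and the remodeller CHD3 at 0.08 (SE 0.0553). CHD3 was called with the GC correction (0.12, adjusted p = 0.0471). Of 7 CXXC proteins, which bind unmethylated CpG, 0 were called (median 0.02), with CXXC4 at 0.14 (SE 0.0665), KMT2A at 0.13 (SE 0.0623) and CXXC1 at -0.09 (SE 0.0539). Without control replicate 3, CXXC4 was called higher (0.22, adjusted p = 0.00827) and FBXL19, chosen after its value was seen, lower (-0.22, adjusted p = 0.0342).

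The methionine and folate cycle, which supplies the methyl donor, had 0 calls among 11 (median 0.02). The serine hydroxymethyltransferases SHMT2 and SHMT1 were at -0.13 (SE 0.0498) and -0.13 (SE 0.0565). Without control replicate 3, 2 of the 11 were called higher and 1, SHMT2, lower (edgeR adjusted p = 0.0176). In that fit 15.3% of all genes were called. MAT2A, which makes S-adenosylmethionine, was at 0.09 (SE 0.0451). Among 14 S phase genes, listed because DNMT1 and UHRF1 are made with them, 0 were called, 13 were above 0 and the median was 0.07, with MCM6 at 0.17 (SE 0.0481), MCM4 at 0.15 (SE 0.0441) and RRM1 at 0.17 (SE 0.0494). With the GC correction 9 of the 14 rose and 0 fell (median 0.13), where 6.42% of all genes were called, while DNMT1 (0.06, adjusted p = 0.312) and UHRF1 (0.11, adjusted p = 0.102) were not called. Of 17 germline genes known to be kept silent by promoter methylation, 10 were in the table and 7 were not analysed here. The 10 summed to 2.40 to 3.41 CPM in control and 2.52 to 3.42 CPM in AURKA-guide libraries, and 2 (SYCP3 and PIWIL2) were tested with 0 calls.

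**Figure D5:**
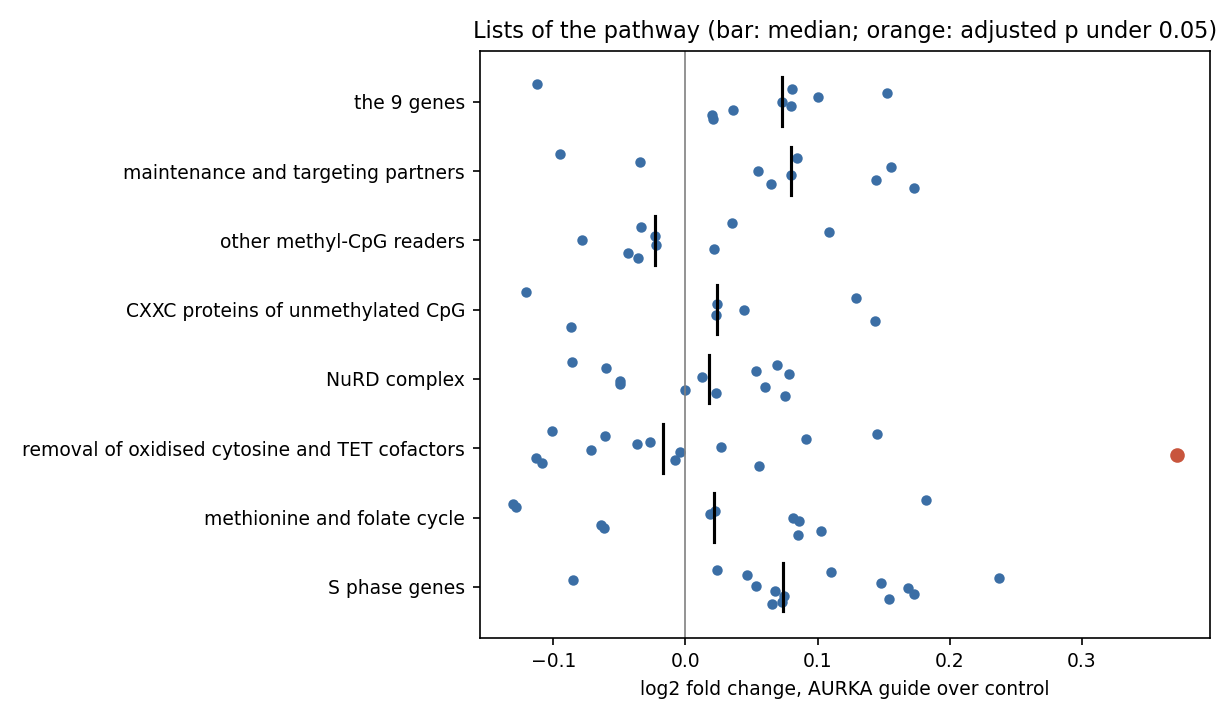
Log2 fold change of AURKA guide over control for the 9 genes and 7 lists of the pathway (the germline list, with 2 tested genes, is left out), 1 point per tested gene, with the median as a bar and genes past an adjusted p of 0.05 in orange. NEIL3 at 0.37 is the 1 orange point, and the medians run from -0.02 to 0.08.

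For the 3 genes with the smallest p, the genes closest in pattern over the 6 libraries were sought among 10250 others with at least 5 CPM, by the root mean square difference of centred log2 CPM. Closest to TET2 were UNG, a uracil-DNA glycosylase (0.0155), UTP14A (0.0187) and the spindle checkpoint kinase BUB1B (0.0208). Closest to MBD2 were the small GTPase RHOQ (0.0128), SELENOK (0.0129) and the histone demethylase KDM1A (0.0158). Closest to TET1 were the clamp loader subunit RFC1 (0.0133), DNAJC10 (0.0151) and SPAG9 (0.0151). The distances are a description.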

How the data were processed

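RNA-seq of LP-1 cells was used, 3 control and 3 AURKA-guide libraries. The submitters' processing notes name BWA, Bowtie2, RSEM and hg19 (versions, roles and strandedness not given in the sources used here). Per-gene and per-transcript expected counts (44.8% of gene values not whole) and FPKM were deposited by the authors. Their deposited comparison tables hold log2 fold changes, p-values and q-values from DESeq2, per the file headers. Another 18 columns of single libraries (TPM, transcript FPKM) were left out.

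Rounded counts were tested by edgeR 4.0.16 (R 4.3.3; filterByExpr, TMM, quasi-likelihood F test, Benjamini-Hochberg over all features, threshold 0.05), and CPM uses TMM-scaled library sizes. The 9 genes had 547 to 5594 expected counts per library. SEs were taken from F. Alternatives were DESeq2 1.42.0 (test or size factors), total counts, no filter, a mean of 10 CPM, limma 3.58.1 on log2(FPKM + 1) or log2(FPKM + 0.1) where 3 libraries reached 0.5 FPKM, a replicate block, leaving out each library, and a GC offset (natural spline, 5 degrees of freedom, GENCODE 29). Scripts were tested on simulated data. In simulated transcript counts with the spread of these libraries, edgeR's test recovered almost none of the changes put in.

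The genes and lists were chosen with earlier results of these data known. The rule names the 9 genes and AURKA, in each list any called gene and the 3 of smallest p above 5 CPM on average, leading or called transcripts, and the 3 genes closest in pattern to TET2, MBD2 and TET1; 1 gene the rule would name is not reported here. TDG, PCNA, MBD3, MAT2A, DNMT3L and the other coding forms of DNMT3B, DNMT3A and MBD2 were named for their roles after their values were seen. RefSeq promoter windows are on GRCh38.p14, not hg19, so no position was joined to the files.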

Additional observations from a re-analysis of the deposited data

How the results depend on the processing

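The count of genes past the threshold, 267 (126 higher, 141 lower), was 823 (407 and 416) with the GC offset and 898 (434 and 464) with the GC offset and the replicate block. Without 1 library it ran from 98 (without AURKA-guide replicate 3) to 2034 (without control replicate 3), with 53 to 905 higher and 45 to 1129 lower; without control replicate 1 it was 111, without AURKA-guide replicate 1 154 and without AURKA-guide replicate 2 101. At a mean of at least 10 CPM, which leaves fewer genes to test, 90 were lower. The cause of the other shifts was not tested.

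Of the 9 genes 0 passed in edgeR's test as reported and in 14 of 16 alternatives, and 1, MBD2, passed with the GC offset, alone and with the replicate block (adjusted p = 0.00796 and 0.00509). DNMT1 changed sign without control replicate 3 (-0.0195, the lowest of its values with 1 library left out, which reached 0.0551) and without AURKA-guide replicate 1 (-0.0116); the other 8 kept theirs in all 16. Of their transcripts, 0 passed with edgeR and 1 with DESeq2. The FPKM order was the same by CPM per kilobase. The lengths used there were those implied by the deposited FPKM, so this is no separate check of the order.

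With the replicate block alone, 385 genes passed and 0 of the 9. The labels do not say whether libraries of the same number form a pair. Same-numbered libraries had correlations of 0.042, -0.113 and 0.077 of their deviations from the group mean. The highest was between control replicate 2 and AURKA-guide replicate 1 (0.158). These values cannot decide on pairing, since deviations from a mean of 3 libraries are tied to each other.

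The standard errors of the 9 genes ran from 0.0499 to 0.066, so a difference of 0.17 on the log2 scale, and possibly a larger one, could be missed. In edgeR's test with all 6 libraries, TET2 at 0.15 (adjusted p = 0.233) and MCM6 at 0.17 (adjusted p = 0.0904) were not called. The 0 calls among the 9 genes therefore do not exclude changes of that size.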
